A study of Mus musculus with 10 samples.

Results

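The 9 genes described here are the core enzymes that write and erase 5-methylcytosine in DNA, together with 2 of their cofactors: Dnmt1, Uhrf1, Dnmt3a, Dnmt3b, Dnmt3l, Tet1, Tet2, Tet3 and Tdg. They were taken by gene symbol from a deposited table of 52550 genes, in which each symbol was found. MEFs (mouse embryonic fibroblasts) are connective tissue cells cultured directly from the embryo, here from C57BL/6 embryos of embryonic day 14, and the labels give passage 3. The male and the female group held 5 libraries each and differed only in sex by their labels. Both groups had the same culture medium with serum and antibiotics, with no genetic change and no agent under study. Libraries were made from total RNA depleted of ribosomal RNA with a kit that keeps strand, so unspliced transcripts were measured beside spliced ones. The series asked which genes differ between male and female MEFs. The labels do not give the embryo, litter or dish behind a library. P-values therefore rest on the spread among these libraries, part or all of which may be technical.

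Methylation of CpG sites is copied after replication by Dnmt1, the maintenance methyltransferase, which Uhrf1 brings to half-methylated DNA. Dnmt3a and Dnmt3b place methyl groups on unmethylated sites (de novo methylation), and Dnmt3l is a partner without activity of its own, known mainly from germ cells and early embryos. The Tet1, Tet2 and Tet3 dioxygenases oxidise 5-methylcytosine, and the glycosylase Tdg cuts out the further oxidised bases so that base excision repair can put back cytosine.

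Libraries held 30662616 to 45859721 unique reads on genes. The X-linked noncoding RNA Xist lay between 17.3 and 25.7 CPM (reads scaled for depth) in female libraries and at 0.0579 or below in male libraries. The Y-linked Ddx3y lay between 54.7 and 68.2 CPM in males and at 0.463 or below in females, so all 10 libraries matched their labelled sex. Over 16 fibroblast markers the summed level ran from 6568 to 7859 RPKM. The corresponding sums were 34.4 to 92.5 RPKM over 9 macrophage markers, 45.5 to 84.4 over 10 epithelial markers, 10.6 to 16.5 over 10 endothelial markers and 27.4 to 41.3 over 10 neural markers. Over 10 blood and liver markers the sum was 1.72 to 7.92 RPKM, highest in female replicate 2. Of that list the globin genes Hba-a1, Hbb-bt and Hbb-y had no unique read, while Alb had a mean of 4.60 CPM.

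Per length of exon, the maintenance pair stood far above the other 7 genes. Levels between genes are given per length, as unique exon reads per kilobase of exon and per sequencing depth (RPKM), with mean ± SD over the 10 libraries. Dnmt1 (chr9:20907209-20959888, minus strand, mm10) reached 26.25 ± 3.32 RPKM, above 89.3% of the 16602 genes tested. Uhrf1 (chr17:56303321-56323486, plus strand) reached 16.2 ± 2.69 RPKM. The median tested gene had 2.91 RPKM. On this scale Dnmt1 was the highest of the 9 in every library and Uhrf1 the second, and their ranges did not overlap. In unique gene reads, introns included and not scaled for length, Tet3 (mean 80.0 CPM) stood above Uhrf1 (54.8 CPM).

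The de novo enzymes were much lower. Dnmt3a (chr12:3806007-3914443, plus strand) had 2.33 ± 0.27 RPKM. Dnmt3b (chr2:153649450-153687730, plus strand) had 0.267 ± 0.076 RPKM, from 55 to 113 unique gene reads per library. The ratio of Dnmt1 to the sum of Dnmt3a and Dnmt3b was 10.2 ± 1.07, and it lay between 8.78 and 11.7 in every library. Dnmt3a exceeded Dnmt3b by 9.34 ± 2.75 times, from 6.23 to 14.2. Both ratios depend on the exon lengths used: 7.4 kb for Dnmt1, 16.6 kb for Dnmt3a and 5.1 kb for Dnmt3b. In unique gene reads, introns included and not scaled for length, these genes had means of 154.7, 43.6 and 2.14 CPM. Dnmt3l (chr10:78041947-78063622, plus strand) was at the limit of detection, with 7 to 24 unique gene reads per library. Its exon level was 0.0618 ± 0.052 RPKM, no exon read was found in female replicates 1 and 5, and no read crossed an exon junction in 5 of the 10 libraries.

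Among the 3 dioxygenases, Tet3 was the main transcript. Tet3 (chr6:83362373-83459084, minus strand) had 6.15 ± 0.58 RPKM. Tet2 (chr3:133463679-133545139, minus strand) had 2.02 ± 0.29 RPKM and Tet1 (chr10:62804570-62908996, minus strand) had 0.403 ± 0.087 RPKM. Of the summed TET level, Tet3 made up 71.7% ± 1.82, Tet2 23.6% ± 1.99 and Tet1 4.70% ± 0.89. The order Tet3, Tet2, Tet1 held in each of the 10 libraries, and the ranges of the 3 genes did not overlap.

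Tdg (chr10:82629828-82650799, plus strand) had 1.99 ± 0.18 RPKM from unique reads. Only 22.3% of its exon reads were unique, against 99.7% for the median gene and 86.4% for Uhrf1, so its level is uncertain. With all exon reads, Tdg came to 7.65 RPKM and would stand above Tet3, at 5.28 RPKM on that scale. The order from the top was Dnmt1, Uhrf1, Tet3, Dnmt3a, Tet2, Tdg, Tet1, Dnmt3b and Dnmt3l. Neighbours in this order did not separate beyond their spread at 3 places. Dnmt3a exceeded Tet2 in 8 of 10 libraries, Tet2 exceeded Tdg in 5 of 10, and Tet1 exceeded Dnmt3b in 10 of 10 although their ranges overlapped.

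**Figure D1:**
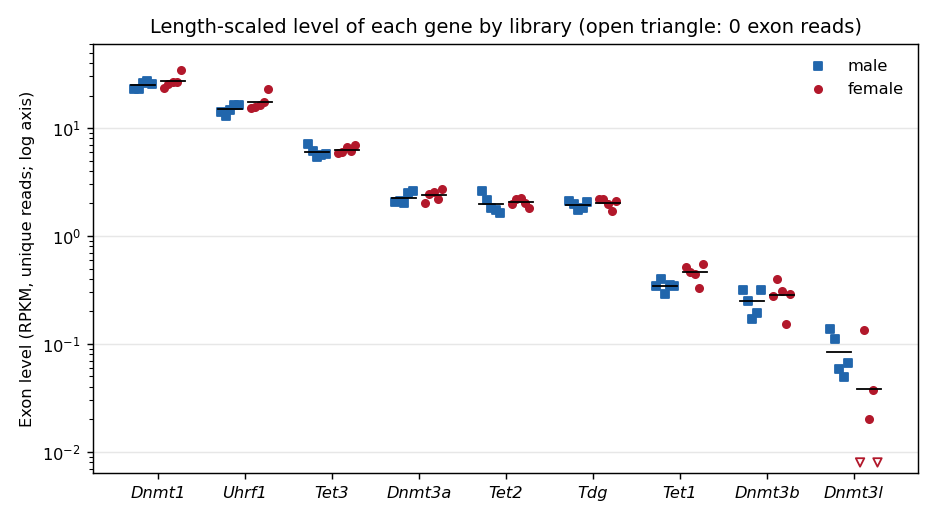
Exon level of each of the 9 genes in RPKM on a log axis, one point per library (squares male, circles female), with black bars at the mean of 5 libraries and open triangles for the 2 female libraries without an exon read of Dnmt3l. Dnmt1 and Uhrf1 stand above all other genes in every library, and male and female points overlap for each gene.

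None of the 9 genes was called different between female and male libraries (edgeR quasi-likelihood test, adjusted over all genes, a call being an adjusted p under 0.05), and 1 of the 9 had an unadjusted p under 0.05. DESeq2 and limma-voom also called 0 of the 9. The background was 15 calls among 16602 genes, or 0.0904%. Sex values below are in CPM of unique gene reads, scaled between libraries, and folds are log2, female minus male, ± SE.

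Dnmt1 stood at 131.6, 137.2, 152.8, 166.6 and 152.3 CPM in male replicates 1 to 5. In female replicates 1 to 5 it stood at 139.7, 153.8, 151.5, 159.8 and 201.5 CPM. One library, female replicate 5, lay above all males, and the other 4 females lay within the male range. The difference was 0.12 ± 0.09 (edgeR adjusted p = 0.996), with a 95% interval from -0.07 to 0.32. Without female replicate 5 it was 0.03, and from intron reads alone 0.02.

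Uhrf1 stood at 46.7, 44.2, 49.6, 57.8 and 55.0 CPM in the male replicates in the same order. The female replicates had 51.4, 53.2, 53.8, 59.3 and 76.4 CPM. Female replicates 4 and 5 lay above all males, and the female was higher in each of the 5 same-numbered pairs. The labels do not state these pairs, and the share of all genes with such a split was not counted. The difference was 0.22 ± 0.11 (edgeR adjusted p = 0.946), with an interval from -0.02 to 0.45. With the replicate number as a block it was 0.21 ± 0.06 (edgeR adjusted p = 0.287), and without female replicate 5 it was 0.10.

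Tet1 had the lowest unadjusted p of the 9 genes, 0.0317 in the edgeR fit, a level that 5.55% of all tested genes reached. Male replicates 1 to 5 had 7.80, 7.48, 5.28, 6.95 and 6.53 CPM. Female replicates 1 to 5 had 9.08, 8.06, 7.93, 6.94 and 9.62 CPM. Of the females 4 of 5 lay above all males, and female replicate 4 lay among them. The difference was 0.29 ± 0.12 with an interval from 0.03 to 0.55, and it did not pass after adjustment (edgeR adjusted p = 0.837). It was 0.41 from exon reads alone and 0.10 from intron reads alone.

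Tet2 differed by 0.04 ± 0.11 between the sexes, Tet3 by 0.10 ± 0.08, Tdg by 0.03 ± 0.08 and Dnmt3a by 0.05 ± 0.08. The 95% interval of these 4 genes reached at most 0.27 above 0 (Tet2) and 0.19 below it (Tet2). Dnmt3b was less precise, at 0.14 ± 0.17, and Dnmt3l least, at -0.33 ± 0.36 with an interval from -1.11 to 0.44. Male and female CPM overlapped for each of the 9 genes, while the sexes did not overlap for 0.976% of tested genes. In the authors' deposited table, which tested the same sexes, the false discovery rate was 1 for each of the 9. On simulated counts of this design, the test recovered 68% of genes changed 1.5-fold. The simulation had 178 calls, against 15 in the data, so its adjustment was milder. Its changed genes were all above the mean level of Dnmt3l. The share is therefore not the power for these 9 genes.

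**Figure D2:**
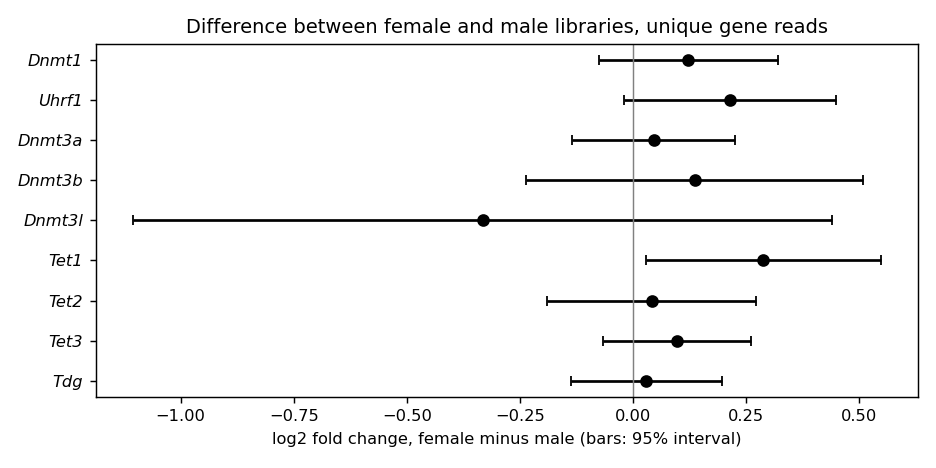
Difference between female and male libraries for each gene on the log2 scale, points being the edgeR estimate from 5 against 5 libraries and bars its 95% interval. The interval of Tet1, from 0.03 to 0.55, is the only one that does not include 0, and it is not adjusted for the 16602 genes tested.

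The ranges of the enzyme ratios overlapped between the sexes, and the ratios were not tested. Dnmt1 exceeded the sum of Dnmt3a and Dnmt3b by 10.3 ± 1.16 times in female and by 10.0 ± 1.08 times in male libraries (SD, n = 5 each), a difference smaller than either SD. The ratio of Dnmt1 to Uhrf1 was 1.57 ± 0.06 in female libraries, from 1.51 to 1.65, and 1.68 ± 0.09 in male libraries, from 1.57 to 1.77. Between libraries of the same number it was lower in the female in 5 of 5 pairs, with differences (female minus male) from -0.140 to -0.0637. Tet3 made up 71.4% ± 2.04 of the TET level in females and 72.1% ± 1.75 in males, and it was lower in the female in 5 of 5 pairs, with differences from -1.17 to -0.197 percentage points. Tet1 made up 5.22% ± 0.92 in females, from 3.89% to 6.14%, and 4.18% ± 0.51 in males, from 3.43% to 4.63%. The Tet1 share was higher in the female in 4 of 5 pairs. Other ratios and gene levels compared by pair split both ways, and the splits were not tested.

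Among the genes around these enzymes, no member of the lists below was called by sex. Over all tested genes 0.0904% were called, so lists this short would mostly hold no call. Among 9 tested partners of maintenance (of 10 listed) 5 were higher and 4 lower in females, with a median of 0.01. Of 20 genes that recruit or shield DNA methylation, 14 were higher, led by Zfp57, which protects imprinted regions, at 0.17 ± 0.08 (edgeR adjusted p = 0.895). Of 17 base excision repair and demethylation genes, 13 were higher, with a median of 0.04. Slc23a2, a vitamin C transporter among the TET cofactor genes, was lower in females by estimate, at -0.20 ± 0.07 (edgeR adjusted p = 0.688). Mtr, the methionine synthase of the methyl donor list, stood at -0.12 ± 0.05 (edgeR adjusted p = 0.864). The median over all tested genes was 0.00.

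The share of reads in introns separated the maintenance pair from the other members. Intron reads made up 7.65% ± 1.42 of the unique gene reads of Dnmt1 and 6.90% ± 1.77 of those of Uhrf1. No library exceeded 10.2% for Dnmt1 or 10.6% for Uhrf1. The median gene had 19.98% over 11711 genes with enough reads, and 19.3% of genes had a lower share than Dnmt1 and 17.1% a lower share than Uhrf1.

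The TET genes and Dnmt3a lay above that median. Tet3 had 31.9% ± 3.19 of its reads in introns, Tet2 36.0% ± 2.59, Tet1 41.0% ± 5.45 and Dnmt3a 34.5% ± 5.19. In no library did the share of any of these 4 genes fall below 25.1%, so none overlapped Dnmt1 or Uhrf1. Per kilobase, intron signal was 1.34% of exon signal for Dnmt1 and 1.97% for Uhrf1, against 6.72% for Tet3, 9.58% for Tet2 and Dnmt3a, and 11.6% for Tet1. The median over 11361 genes was 4.26%, so the pair also lay below it per kilobase of intron.

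Dnmt3b had the highest intron share of the 8 genes tested, 53.6% ± 7.57. Its reads are few, and an antisense gene, Dnmt3bos (chr2:153648690-153650286, minus strand), overlaps its 5′ end and had 78 to 365 reads per library, more in sum (1743) than the 818 of Dnmt3b. Whether the counting used strand is not given in the sources used here, so reads of this pair cannot be told apart with certainty. Tdg showed 45.0% intron reads by unique reads and 15.5% by all reads, beside the low unique share of its exon reads. Glt8d2 overlaps the 3′ end of Tdg on the other strand and had 96 to 211 reads per library.

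**Figure D3:**
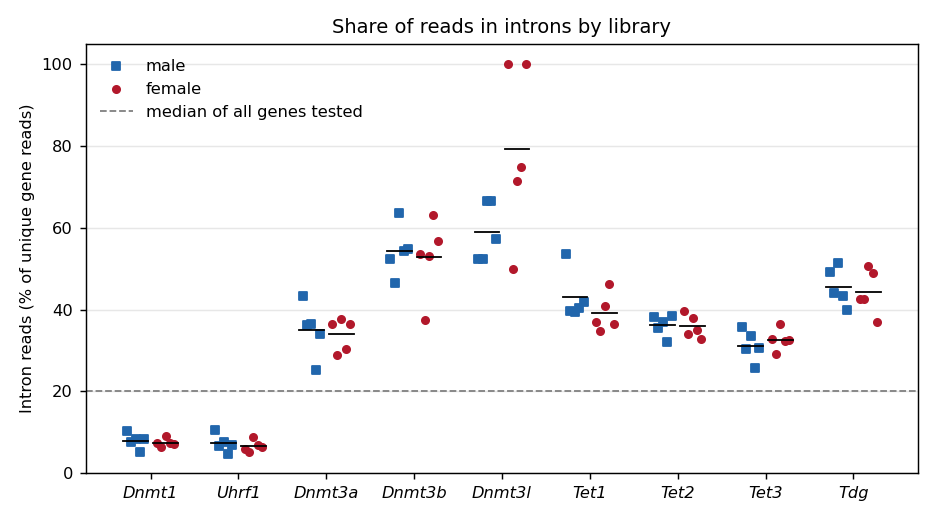
Share of unique gene reads that fell in introns for each gene, one point per library (squares male, circles female), with black bars at the mean of 5 libraries and a dashed line at the median of all genes tested, 19.98%. Dnmt1 and Uhrf1 lie at or below 10.6% in all 10 libraries and all other points lie above the dashed line.

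Sex did not move the intron-to-exon ratio of any member past the threshold. The log2 ratio was tested with limma over 11711 genes, of which 4 (0.0342%) were called, and 8 of the 9 members had enough reads. None of the 8 had an unadjusted p under 0.05, against 3.96% of the genes tested. Tet1 had the largest estimate among them, -0.28 ± 0.19 (limma adjusted p = 0.999), with an interval from -0.68 to 0.13. Its intron share was 53.6% in male replicate 1 and 39.4% to 41.7% in the other males, against 34.7% to 46.2% in females. Dnmt1 differed by -0.12 ± 0.08, Uhrf1 by -0.15 ± 0.11 and Tet3 by 0.06 ± 0.07. The test was weak for small changes: on simulated ratios it recovered 4% of 1.5-fold and 56% of 2-fold changes. That simulation set the same spread for every gene, not taken from these data.

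Dnmt1 and Uhrf1 rose, and Tet2 fell, with the level of proliferation genes across the 10 libraries. A score was taken as the mean log2 CPM of 64 genes in 2 lists, 32 of DNA replication and 32 of mitosis, none of them among the 9. Centred on 0, it ran from -0.20 in male replicate 1 to 0.30 in female replicate 5. The slope of each gene on this score, with sex in the model, was tested with edgeR. Of 16538 genes outside the score, 417 were called (2.52%), 238 rising (1.44%) and 179 falling (1.08%). In bulk RNA a larger share of cells with a transcript and more of it per cell cannot be told apart.

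Dnmt1 had a slope of 1.02 ± 0.17 log2 units per unit of the score (edgeR adjusted p = 0.00850). Its CPM values are given above: the lowest was in male replicate 1 and the highest in female replicate 5, as for the score. Uhrf1 had a slope of 1.18 ± 0.20 (edgeR adjusted p = 0.00850), and 5.67% of genes had a higher slope. Mki67, a score gene and marker of dividing cells, had a slope of 0.94 ± 0.19 on the score it is part of.

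Tet2 moved the other way. It stood at 34.3, 29.6, 25.1, 23.5 and 22.9 CPM in male replicates 1 to 5 and at 28.6, 29.8, 29.99, 27.4 and 23.5 CPM in female replicates 1 to 5. The highest value was in the male library with the lowest score. The lowest values were in male replicates 4 and 5 and female replicate 5. The order was not strict: male replicate 5, the lowest, had a middle score of 0.023. Female replicate 3, at a score of 0.019, had the highest female value. Its slope was -1.09 ± 0.25 (edgeR adjusted p = 0.0343).

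The remaining members were not called on the score. Dnmt3a had a slope of 0.51 ± 0.26 (edgeR adjusted p = 0.354) and Tdg of -0.59 ± 0.23 (edgeR adjusted p = 0.207). Tet1 (-0.16 ± 0.42), Tet3 (-0.06 ± 0.27), Dnmt3b (-0.24 ± 0.62) and Dnmt3l (-0.84 ± 1.28) had wide intervals that included 0. On simulated counts the test recovered 10% of genes with a slope of 1 and 71% of those with a slope of 2. Slopes of 1 thus mostly went uncalled there, with 86 calls in all against 417 in the data. The simulated spread came from a fit with sex alone, so variation that goes with the score was counted as noise. The shares are therefore not the power for these genes. Tet3 had a slope of 0.50 in female libraries alone and -1.16 in male libraries alone. That difference between the sexes was 1.60 ± 0.38 (edgeR unadjusted p = 0.000943, adjusted p = 0.562), and 0 genes were called for it, with 1282 at an unadjusted p under 0.05.

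**Figure D4:**
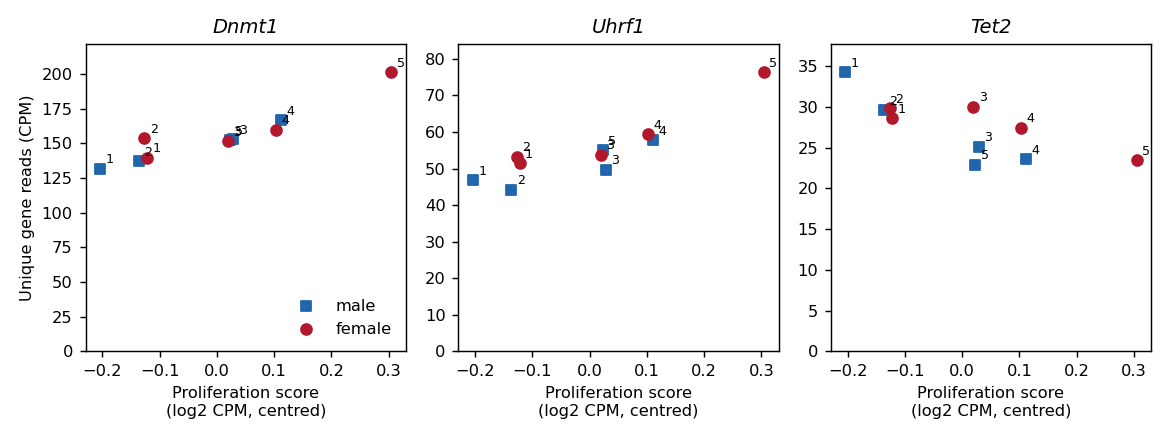
Unique gene reads of Dnmt1, Uhrf1 and Tet2 in CPM against the proliferation score of each library (squares male, circles female, numbers being replicates). Female replicate 5, with a score of 0.30, has the highest Dnmt1 and Uhrf1 and a low Tet2, and male replicate 1, at -0.20, has the highest Tet2.

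The calls rested on few libraries. Without female replicate 5 the slope of Dnmt1 was 0.81 (edgeR adjusted p = 0.140), that of Uhrf1 0.91 (adjusted p = 0.153) and that of Tet2 -1.27 (adjusted p = 0.139), and 12 genes were called in all. Tet2 was also not called without any one of male replicates 1, 2 and 3 or female replicates 1, 2 and 4, with edgeR adjusted p from 0.0531 to 0.115. The score also followed the replicate number. Same-numbered male and female libraries differed in score by at most 0.0818 for numbers 1 to 4 and by 0.282 for number 5. With the number as a block, Dnmt1 had 1.34, Uhrf1 1.20 and Tet2 -0.57, each with an edgeR adjusted p of 1.00, and 0 genes were called, with 538 at an unadjusted p under 0.05. Most of the score's spread is thus shared with the numbers and cannot be told apart from them. The block fit leans mainly on the pair of number 5, which holds female replicate 5, so its signs are not independent of that library. In male libraries alone the 3 slopes were 0.97, 1.01 and -1.84, with adjusted p from 0.224 to 0.367, and in female libraries alone 1.02, 1.24 and -0.71, with adjusted p of 0.0504, 0.0324 and 0.219. Signs did not change in these fits. Female minus male, the slope of Tet2 differed by 1.08 ± 0.46 (edgeR unadjusted p = 0.0349, adjusted p = 0.625). That of Dnmt1 differed by -0.01 ± 0.36 and that of Uhrf1 by 0.17 ± 0.42.

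No marker of a cell type was called on the score, and the part of other cell types in the slopes was not tested. All 9 tested macrophage markers had a positive slope, with a median of 1.33. Their summed level was 92.5 RPKM in female replicate 5 and 34.4 to 69.5 in the other 9 libraries. No macrophage marker was at 0, and Lyz2, the most abundant, had a slope of 1.88 ± 0.62 (edgeR adjusted p = 0.165). Csf1r came nearer to the threshold, at 2.09 ± 0.56 (edgeR adjusted p = 0.0601). Of 16 fibroblast markers 15 had a negative slope, with a median of -0.56. The smallest p-values were those of Twist2 (-1.51 ± 0.55, edgeR adjusted p = 0.203) and Dcn (-1.48 ± 0.61). Vim, the most abundant per length, had -0.20 ± 0.26. Of 7 tested epithelial markers 5 had a positive slope, with a summed level of 66.7 RPKM in female replicate 5 and 84.4 RPKM in male replicate 5. Krt19, the most abundant of them, had 1.73 ± 0.43 (edgeR adjusted p = 0.0607). The endothelial sum was 16.5 RPKM in female replicate 5 and 10.6 to 13.8 in the other libraries, with a positive slope for 3 of 7 tested markers. The neural sum was 41.3 RPKM there and 27.4 to 40.4 in the others, with a positive slope for 2 of 6. One of these was Nes, the most abundant, at 1.29 ± 0.32 (edgeR adjusted p = 0.0546).

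**Figure D5:**
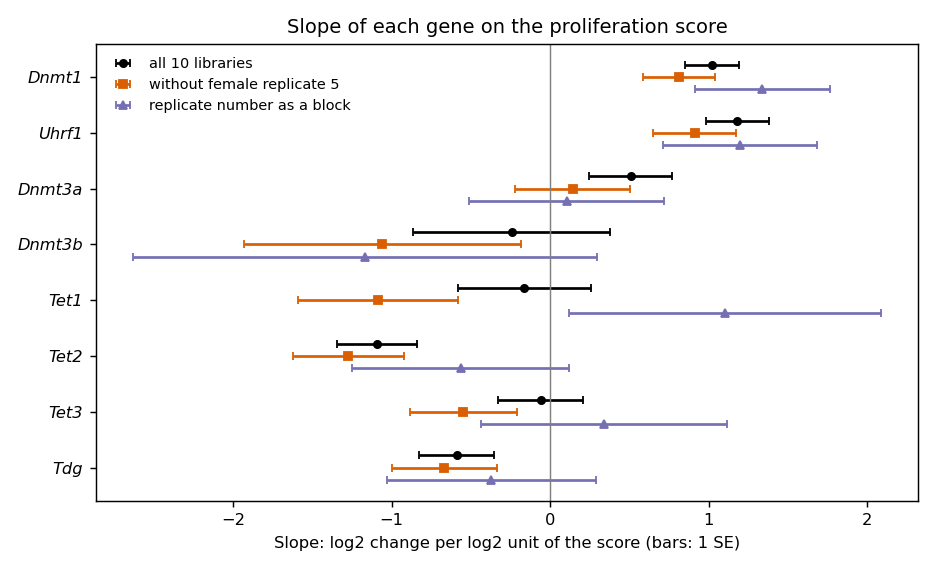
Slope of 8 of the 9 genes on the proliferation score (log2 change per log2 unit, bars 1 SE) from all 10 libraries, without female replicate 5, and with the replicate number as a block. Dnmt1, Uhrf1 and Tet2 keep their sign in the 3 fits, while Tet1 runs from -1.09 to 1.11. Dnmt3l is left out for its few reads.

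Partners of maintenance rose with the score in part. Of 9 tested genes 8 had a positive slope, with a median of 0.84 against 0.00 over all genes. In the fit of all libraries 3 of the 9 were called rising, against 1.44% of all genes outside the score. The 3 were Lig1, the DNA ligase of replication, at 1.03 ± 0.22 (edgeR adjusted p = 0.0248), the chromatin remodeller Hells at 1.15 ± 0.27 (adjusted p = 0.0379), and its partner Cdca7 at 1.88 ± 0.38 (adjusted p = 0.0180). Pcna, the sliding clamp that Dnmt1 binds, had 0.84 ± 0.23 (adjusted p = 0.0695). Lig1 and Pcna act in DNA replication, as do many score genes, so their rise with the score was partly built in. Usp7, a deubiquitinase that stabilises Dnmt1 and Uhrf1, had 0.07 ± 0.15, and Uhrf2, the relative of Uhrf1, 0.22 ± 0.20. None of the list was called without female replicate 5, without female replicate 1 or with the replicate block, and 1 was called without male replicate 1 or without male replicate 2. With a library left out the slopes were 0.93 to 1.17 for Lig1, 0.94 to 1.37 for Hells and 1.28 to 2.04 for Cdca7, and with the block 0.20, 0.41 and 1.22.

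Among recruitment genes 2 of 20 rose with the score, against 1.44% of all genes outside it. Ezh2, the H3K27 methyltransferase, had 1.61 ± 0.29 (edgeR adjusted p = 0.0110). Nsd2, an H3K36 methyltransferase, had 0.79 ± 0.18 (edgeR adjusted p = 0.0339). Of 15 TET cofactor and partner genes, Cxxc5, a CpG-binding protein, rose at 0.88 ± 0.19 (adjusted p = 0.0242). Idh1, which makes the 2-oxoglutarate that TET enzymes use, fell at -1.90 ± 0.35 (adjusted p = 0.0175). Of 16 methyl donor genes Mthfd1, a folate enzyme, rose at 0.76 ± 0.17 (adjusted p = 0.0317). None of 12 methyl-CpG readers or 17 repair genes was called. Over all genes outside the score 2.52% were called in either direction, so lists this short would mostly hold no call. Parp1, of the repair list, had 0.65 ± 0.18 (adjusted p = 0.0683), and Ung, the uracil glycosylase, 1.71 ± 0.51 (adjusted p = 0.0891). The 5 calls in this paragraph were lost without female replicate 5 and with the replicate block. Except for Ezh2 they were also lost without female replicate 1 or male replicate 1. Nsd2, Idh1 and Cxxc5 were lost without female replicate 2, Nsd2 and Mthfd1 without male replicate 2, and Nsd2 without female replicate 4 or male replicate 3. The slopes with a library left out were 1.33 to 1.81 for Ezh2, 0.69 to 0.90 for Nsd2, 0.76 to 1.04 for Cxxc5, -2.22 to -1.80 for Idh1 and 0.64 to 0.84 for Mthfd1. With the block they were 0.37, 0.31, 0.87, -0.33 and 0.80 in the same order.

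Each of the 2 maintenance genes matched at least 1 of 4 short sequences near a start site, and no match was found for the other 7 members. The search was chosen because these 2 genes rose with the score in the fit of all libraries. E2F factors are known to drive genes at the start of DNA replication. Their part in these slopes was not tested. Searched on both strands were 4 forms of an E2F site, TTTCCCGC, TTTGGCGC, TTTCGCGC and TTTGCCGC, in windows from 250 bases before to 50 after each RefSeq start (GRCm38.p6). The sites are printed 5′ to 3′ on the gene's strand, with the match in capitals.
Dnmt1, chr9:20952574-20952603, starting 33 bases after a start site: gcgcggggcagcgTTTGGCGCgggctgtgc
Dnmt1, chr9:20952824-20952853, 219 bases before it and on the other strand: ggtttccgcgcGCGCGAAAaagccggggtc
Uhrf1, chr17:56304117-56304146, 185 bases before a start site: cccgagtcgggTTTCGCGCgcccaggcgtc
The match lay in 2.26% of 32851 windows, for 4.29% of 11850 tested genes with a window and for 14 of 53 score genes (26.4%). Members differed in windows: 3 for Dnmt1, Dnmt3a and Dnmt3l, 2 for Uhrf1 and 1 for Dnmt3b, Tdg, Tet1, Tet2 and Tet3. Those with fewer windows had less sequence in which to match. Both Dnmt1 matches lie in exons of 2 of its 7 annotated transcripts each, and the Uhrf1 match lies in none. A match is a description of the letters and not evidence of binding. It was 1 of 4 definitions tried after the values were seen. Without the first T, which adds matches to these, the same 2 members matched, with 18.3% of tested genes. With the forms TTCCCGCC, TTTGGCGC and TTGGCGCC they matched again, with 6.48%. The letters TTTGAA of the cell cycle homology region were found for Dnmt1 and Dnmt3b, with 14.8%.

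The genes most like each member over the 10 libraries were taken from 10072 genes with a mean of at least 5 CPM, by Pearson's r of log2 CPM. These are the top of many and carry no test, and all points share the same libraries. Nearest to Dnmt1 were the histone genes Hist1h2bk (0.98), Hist1h4h (0.97) and Hist4h4 (0.97). Nearest to Uhrf1 were Parp1 (0.97), the cell cycle kinase Cdk2 (0.97) and Dcaf15 (0.97). For Tet2 they were Setd5 (0.97), Sgip1 (0.95) and Ttll5 (0.94), for Tet3 Ubash3b (0.96), Runx1 (0.96) and Unk (0.96), and for Tet1 Hoxb4 (0.95), Adam23 (0.93) and Cxcl12 (0.91). Dnmt3a was nearest to Dedd (0.93), Dnmt3b to Krba1 (0.91) and Tdg to Asph (0.94).

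Genes that DNA methylation is known to hold silent were low. Of 16 germline genes 6 passed the filter on low counts, and the summed level of the list was 1.01 to 2.12 RPKM. Tex15 was the highest, at 0.742 RPKM and 6.63 CPM, with a sex difference of -0.37 ± 0.12 (edgeR adjusted p = 0.613). Of 12 pluripotency genes only Esrrb passed the filter, at 0.591 CPM. Dnmt3c, a relative of Dnmt3b known from male germ cells, had 0 to 6 reads per library.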

How the data were processed

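The members, gene lists and tests were chosen with earlier results of these data known. The authors deposited whole-number read counts per gene and library, per the file headers, divided into unique and total, gene, exon, intron and junction reads, on mm10 per the submitters' processing notes. No source used here gives the aligner or the counting rules. Their own p-value, false discovery rate and signed fold, kept as a score without a scale of its own, came deposited in the same table. Another 80 columns with values by library were left unused. Starts were converted to count from 1.

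Unique gene reads were tested with edgeR 4.0.16 in R 4.3.3 (filterByExpr, minimum count 10, TMM, robust quasi-likelihood, two-sided, Benjamini-Hochberg over all genes), with sex, or sex and the proliferation score (prior count 2). The log2 intron-to-exon ratio (0.5 reads added, at least 10 mean reads of each, centred per library) was tested with limma 3.58.1. SE is the log2 estimate over the square root of F. Intervals are 95% from the t distribution of each fit. Both tests were tried on simulated data. Alternatives were other scalings, filters, read types and scores, DESeq2 1.42.0, voom, a replicate block and each library left out. Same-numbered male and female libraries deviated together to differing degrees (r = 0.216, 0.340, 0.438, 0.111 and 0.503). Of the 10 libraries 7 correlated best with their own number, and female replicate 1 and both libraries of number 4 did not. The numbers were taken as pairs from the data alone. No pair of libraries agreed within sampling noise. Reads lack molecular identifiers. Named genes were all members, up to 3 per list with the smallest p for sex and for the score, the 3 nearest genes of each member and the most abundant marker of each cell type. Usp7, Uhrf2, Dnmt3c, Xist, Ddx3y, the globins and the overlapping genes were added after their values were seen. Promoters came from RefSeq, where all 9 members matched.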

Additional observations from a re-analysis of the deposited data

Results flagged for a closer look

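Within groups of 5 libraries, a value was singled out where its gap to the nearest other library, divided by the range of the group, exceeded 0.71. Of 36 groups looked at, chance alone gives about 1.8 and 2 were found. Dnmt3b had 1.60 CPM in female replicate 4 and 2.28 to 2.49 CPM in the other females. The intron share of Tet1 was 53.6% in male replicate 1 and 39.4% to 41.7% in the other males. Male replicate 1 also had the lowest proliferation score and the highest Tet2.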

How the results depend on the processing

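No alternative called any of the 9 members by sex or for the intron-to-exon ratio. The sex estimate ran from 0.02 to 0.17 for Dnmt1, 0.09 to 0.27 for Uhrf1 and 0.10 to 0.41 for Tet1, lowest from intron reads. Over all genes, the sex test called 15 genes, 30 without a filter, 70 with DESeq2, 43 with the replicate block and 12 to 36 with a library left out (36 without male replicate 1). The ratio test called 4 genes, and 2 to 5 with a library left out. On the score, 417 genes and 3 members were called. With the replicate block, male libraries alone, or without the 2 libraries of farthest score, 0 genes and 0 members were called (538, 1677 and 1063 genes had an unadjusted p under 0.05). Intron reads called 42 genes and 0 members, and female libraries alone 216 genes and 1 member, Uhrf1. Gene counts were 981 with DESeq2, 953 with exon reads, 703 with replication genes alone as the score, 51 with mitosis genes alone, 1269 with the library's intron share as a further term (added after the data were seen), and 12 to 836 with a library left out, 12 being without female replicate 5. Members called then ranged from 0 to 3. With each library left out in turn, Tet2 was called in 3 of 10 fits and Dnmt1 and Uhrf1 in 9 of 10, and the cause was not tested.

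Signs turned only for values that were never called. By sex, Dnmt3a ran from -0.017 to 0.093, Tet2 from -0.014 to 0.14 and Tdg from -0.00306 to 0.066 with a library left out, and intron reads gave Dnmt3a -0.015, Dnmt3l 0.029 and Tdg -0.039. The ratio of Dnmt3b ran from -0.30 to 0.043, of Tet2 from -0.13 to 0.00408 and of Tdg from -0.21 to 0.00984. On the score with a library left out, Dnmt3l ran from -2.86 to 0.37, Tet1 from -1.09 to 0.025 and Tet3 from -0.55 to 0.26. The replicate block gave Dnmt3l 2.38, Tet1 1.11 and Tet3 0.34. Intron reads gave Dnmt3b 0.78 and Dnmt3l 0.99. No sex term gave Tet1 0.11 and Tet3 0.044, female libraries alone Tet1 0.23 and Tet3 0.50. Tet3 had 0.019 without the 2 farthest libraries, and with the intron share as a term Tet3 had 0.12 and Dnmt3b 0.045. The block changed no other call of the members. Few reads limit Dnmt3b and Dnmt3l, and few unique reads Tdg.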
